A study of Mus musculus with 8 samples.

Results

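The mitosis and spindle genes followed here are 32 genes of the machinery that divides a cell, of 32285 genes in the count tables. They were set by name as a gene list, without a threshold on measured values, though with earlier results of these data known. All 32 were detected and passed the filter on low counts in every comparison. They were read in CD90.1+ OT-I T cells, CD8+ T cells whose receptor recognises ovalbumin, taken from Cas9 knock-in mice and given guides of a CRISPR library of metabolic genes by lentivirus. They had been transferred into mice with orthotopic KPC_OVA tumours, a pancreatic ductal adenocarcinoma (PDAC) line that expresses ovalbumin. Sorting from the primary tumour followed 7 days later. Mice received an antibody against the checkpoint receptor PD-1 (3 libraries, anti-PD-1 replicates 1, 2 and 3) or control IgG (1 library). Every cell therefore shared the Cas9 knock-in, the OT-I receptor and a guide, most often against a metabolic gene, and tumours of several mice were pooled. The study gives mice per treatment but not how they were divided over these libraries.

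CROP-seq, which reads transcripts and the guide of the same cell, gave 56359 cell barcodes, of which 23805 had exactly 1 guide and 23059 passed the filters. The 3 anti-PD-1 libraries held 2535, 2597 and 6432 of these cells and the IgG library 11495, at a median of 16829, 16325, 12084 and 6329 unique molecular identifiers (UMIs, counted transcript molecules) per cell. Pairs of libraries shared 3 to 18 cell barcodes. All 7 CD8 T cell markers, among them Cd3e, Cd8a and Trac, were detected in every library, at a summed level of 6253 to 6837 CPM (counts of a gene per 1000000 UMIs of its library or cell group). Markers of tumour, myeloid, B, stromal, endothelial and CD4 cells, 28 genes, summed to 92.9, 103 and 231 CPM in replicates 1, 2 and 3 and to 108 CPM in IgG, with 2 to 5 of them at 0. Whether replicates 1 and 2, whose sample titles share a name, come from separate animals is not stated, so p-values measure the spread between libraries, which may be technical.

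Cells enter mitosis when cyclin-dependent kinase 1, bound to its cyclins, phosphorylates targets that condense chromosomes and build the spindle. Aurora and Polo-like kinases and the spindle checkpoint hold the cell until every chromosome is attached, after which the anaphase-promoting complex (APC/C) marks cyclin B for destruction and the central spindle guides cytokinesis. Transcripts of these genes accumulate in G2 and M phase, through activators that act at a promoter element called CHR (cell cycle genes homology region) together with CCAAT boxes. Activated CD8 T cells divide in bursts, and Ki-67, encoded by Mki67, is the usual marker of cycling T cells in tumours.

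RefSeq promoters (build GRCm38.p6, which is the build of mm10) were found for 28 of the 32 genes. Aurkb, Ccna2, Kif20a and Tpx2 had no entry. In the 250 bases before the transcription start, a CHR (TTTGAA or TTCGAA, either strand) was present in 9 of 28 promoters, or 32.1%, and in 17.4% of 27025 promoters of all genes. At least 2 CCAAT boxes (CCAAT, either strand) were present in 15 of 28, or 53.6%, against 10.5% of all promoters. In 6 of the 28, or 21.4%, a CHR began within the last 100 bases before the start, against 6.29% of all promoters and 25.0% of those of the other mitosis genes. These 6 are printed because they are the members that carry the element where such genes are known to carry it. Each line gives the 100 bases before the start, 5′ to 3′ along the gene's strand, with CHR and CCAAT matches of either strand in capitals.
Ube2c (chr2:164769829-164769928, plus strand): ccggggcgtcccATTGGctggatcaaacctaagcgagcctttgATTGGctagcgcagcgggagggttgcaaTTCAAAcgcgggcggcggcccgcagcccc
Cdc20 (chr4:118437344-118437443, minus strand): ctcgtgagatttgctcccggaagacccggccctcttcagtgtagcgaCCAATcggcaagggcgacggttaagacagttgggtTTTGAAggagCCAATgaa
Kif11 (chr19:37376282-37376381, plus strand): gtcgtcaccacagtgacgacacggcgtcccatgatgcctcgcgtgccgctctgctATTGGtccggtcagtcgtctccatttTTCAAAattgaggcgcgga
Mki67 (chr7:135716380-135716479, minus strand): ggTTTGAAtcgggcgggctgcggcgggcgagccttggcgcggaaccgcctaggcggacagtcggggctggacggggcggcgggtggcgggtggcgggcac
Cdk1 (chr10:69352913-69353012, minus strand): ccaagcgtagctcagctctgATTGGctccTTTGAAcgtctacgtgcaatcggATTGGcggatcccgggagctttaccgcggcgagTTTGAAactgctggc
Top2a (chr11:99024190-99024289, minus strand): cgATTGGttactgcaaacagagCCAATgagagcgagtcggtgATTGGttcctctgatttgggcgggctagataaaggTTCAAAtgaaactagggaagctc
The nearest CHR began 29 bases before the start in Ube2c, 18 in Cdc20, 19 in Kif11, 15 in Cdk1 and 23 in Top2a, and 98 in Mki67. A match describes the letters only and is not a measured binding site.

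The genes spanned a wide range of levels in the 4 libraries, and are given in CPM without a correction for length, since the assay counts one end of each transcript. Of the chromatin genes, Top2a, the topoisomerase that untangles sister chromatids, was at 288, 284 and 269 CPM in replicates 1, 2 and 3 and at 283 CPM in IgG. Mki67 was at 195, 192 and 210 CPM and at 232 CPM in IgG, above each anti-PD-1 library. The highest level of the 32 was that of Cenpa, the histone variant that marks centromeres, at 309, 314 and 336 CPM and at 327 CPM in IgG. Among the other centromere and kinetochore genes, Cenpf, which loads onto kinetochores in G2, was at 78.5, 81.1 and 102 CPM and at 112 CPM in IgG, while the kinetochore motor Cenpe averaged 67.0 CPM over the 4 libraries and Knstrn 35.4 CPM.

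Of the cyclins and their kinase, Cdk1 was at 88.4, 91.8 and 73.7 CPM in replicates 1, 2 and 3 and at 76.6 CPM in IgG. Ccnb1, cyclin B1, was at 41.6, 47.9 and 41.0 CPM and at 44.5 CPM in IgG, within the range of the anti-PD-1 libraries. Ccnb2 averaged 90.8 CPM, Ccna2 63.9 CPM and the CDK-associated phosphatase Cdkn3 32.7 CPM over the 4 libraries. Ube2c, the ubiquitin-conjugating enzyme of the APC/C, was at 182, 216 and 220 CPM and at 237 CPM in IgG. The APC/C activator Cdc20 averaged 47.5 CPM. The end of Cdc20 overlaps that of Elovl1 on the opposite strand by 53 bp, and in all 13 of the 32 genes overlap another annotated gene on the opposite strand and 7 one on the same strand.

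Among kinases and checkpoint genes, Birc5, survivin of the chromosomal passenger complex, averaged 173 CPM. The kinase of that complex, Aurkb, was at 41.3, 42.2 and 42.0 CPM in replicates 1, 2 and 3 and at 44.1 CPM in IgG. Plk1, Polo-like kinase 1, was at 29.1, 31.9 and 34.5 CPM and at 38.0 CPM in IgG, while the centrosomal kinase Aurka averaged 19.1 CPM. The checkpoint genes Bub1b, Bub1 and Ttk averaged 31.7, 24.4 and 10.1 CPM. The spindle genes lay between 28.9 CPM for Aspm, a spindle pole protein, and 89.3 CPM for Nusap1, which bundles microtubules. Between them were Tpx2, the activator of Aurora A, at 76.1 CPM, the spindle motor Kif11 at 60.4 CPM, Hmmr at 53.1 CPM and Tacc3 at 51.2 CPM. Of the genes of the central spindle and cytokinesis, Prc1, which bundles the midzone, averaged 77.7 CPM, Kif20b 43.8 CPM, Kif23 29.6 CPM, Cep55 26.9 CPM, Kif20a 17.2 CPM and the actin-binding Anln 10.8 CPM.

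**Figure D1:**
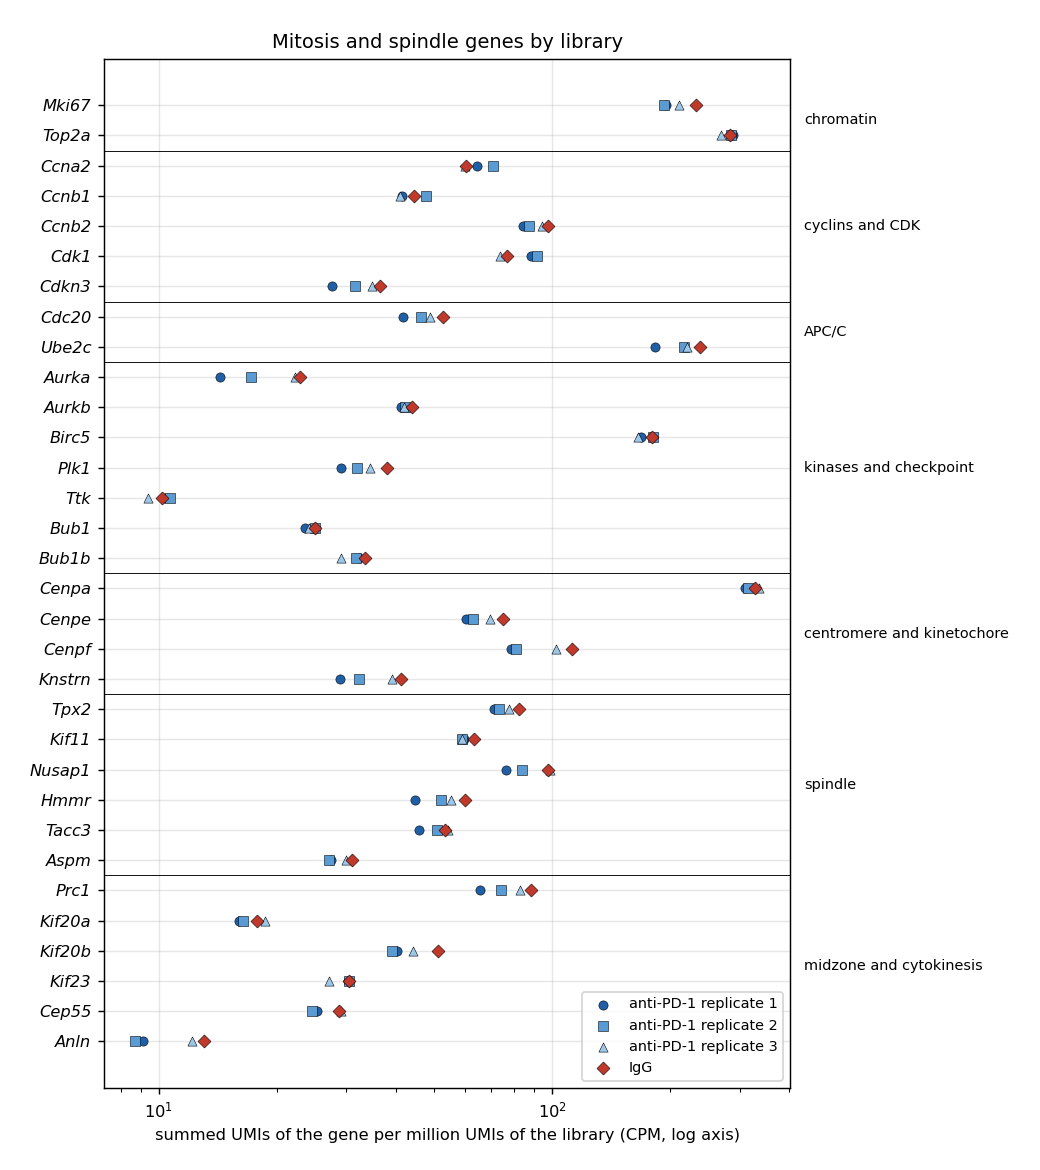
Level of each of the 32 genes (rows, grouped by role) in each library, in CPM on a log axis; circles, squares and triangles are anti-PD-1 replicates 1, 2 and 3 and diamonds IgG. Levels ran from about 10 CPM for Ttk and Anln to above 300 CPM for Cenpa. The IgG diamond lay to the right of all anti-PD-1 symbols in 20 rows, where this held for 23.9% of 13810 genes.

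The transcripts were concentrated in few cells. Each cell was thinned at random to 2000 UMIs so that libraries of unequal depth could be compared, and 163 IgG cells with fewer UMIs were not used. At this depth 33.8%, 34.6% and 35.4% of cells in replicates 1, 2 and 3 and 32.4% in IgG held no UMI of any of the 32 genes, while 17.7%, 18.9%, 17.6% and 19.8% held UMIs of at least 6. One cell of replicate 2 and of replicate 3 held as many as 24 different members. Across cells, the 496 pairs of members had a median correlation of 0.51 over the library means, and Ube2c with Cenpf was the closest pair at 0.81, with 0.75 to 0.84 in single libraries. These are descriptions over cells that share a library and a depth. The level of Ttk, the gene with the fewest UMIs, went least with the sum of the other members, at 0.32 to 0.49 per library, and that of Cenpf ran at 0.82 to 0.88.

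To see where in the cell cycle the genes were used, cells were set apart by genes outside the list. The 10% of cells of each library with the highest score over 24 other G2/M genes (such as Cdca3, Cks2 and Ndc80) were called G2/M-high, and of the remaining cells those in the top 20% for 22 S phase genes (such as Mcm2, Pcna and Rrm2) were called S-high. Scores were mean Pearson residuals, which correct for depth. G2/M-high cells held all 32 genes at higher levels than S-high cells, with a median log2 fold change of 1.88 and a range of 1.10 to 3.61, against a median of 0.02 over all genes. All 32 passed an adjusted p of 0.05 in edgeR's quasi-likelihood test with Benjamini-Hochberg adjustment, where 25.4% of 11176 genes tested were called higher. Because the gates were set on transcripts of the same cells, this test describes how strongly the members go with other cell cycle genes. In every library 100% of thinned G2/M-high cells held UMIs of at least 3 members, against 51.9% to 61.2% of S-high cells and 11.9% to 16.8% of the rest.

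Ube2c differed most between the gates. It was at 812, 956 and 1078 CPM in G2/M-high cells of replicates 1, 2 and 3 and at 1072 CPM in IgG, and at 64.5, 85.4, 81.3 and 91.0 CPM in S-high cells, with no overlap. Its log2 fold change was 3.61 ± 0.03 (SE). Cenpf followed at 3.41 ± 0.04 and Cdc20 at 2.98 ± 0.04. The lowest were Ttk at 1.10 ± 0.08, Top2a at 1.11 ± 0.03 and Aurkb at 1.25 ± 0.05. Top2a was at 897, 864, 956 and 906 CPM in G2/M-high cells of replicates 1, 2 and 3 and IgG and still at 443, 428, 398 and 414 CPM in their S-high cells. Mki67 rose by 1.43 ± 0.04, Cdk1 by 1.35 ± 0.03, Ccnb1 by 2.53 ± 0.05 and Plk1 by 2.53 ± 0.05 on the log2 scale. By role, the median was highest for the 2 APC/C genes, at 3.29, and lowest for the 2 chromatin genes, at 1.27. Single genes did not all keep this order, with Cenpf above Cdc20, and Ttk, Aurkb and Cdk1 below Mki67.

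S-high cells already held more of most members than the cells outside both gates. In 27 of the 32 genes the S-high level was higher in all 4 libraries, where this held for 30.5% of 11176 genes, for example by a mean of 6.05-fold for Ttk, 4.60-fold for Top2a, 4.37-fold for Cdk1 and 3.67-fold for Mki67. The exceptions were Ube2c, Cdc20, Cdkn3 and Ccnb2, with S-high to other ratios of 0.91, 1.07, 1.06 and 1.15, and Cenpa, which was lower in S-high cells in each library, at a ratio of 0.92. Cenpa also stood apart in its spread over cells. G2/M-high cells, 10% of the cells with 14.2% of all UMIs, held 33.7% ± 2.42 (SD, n = 4) of Cenpa UMIs, the smallest share of the 32, against 70.5% ± 3.23 of Cenpf UMIs, the largest. In cells outside both gates Cenpa was at 250, 254, 257 and 252 CPM in replicates 1, 2 and 3 and IgG.

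**Figure D2:**
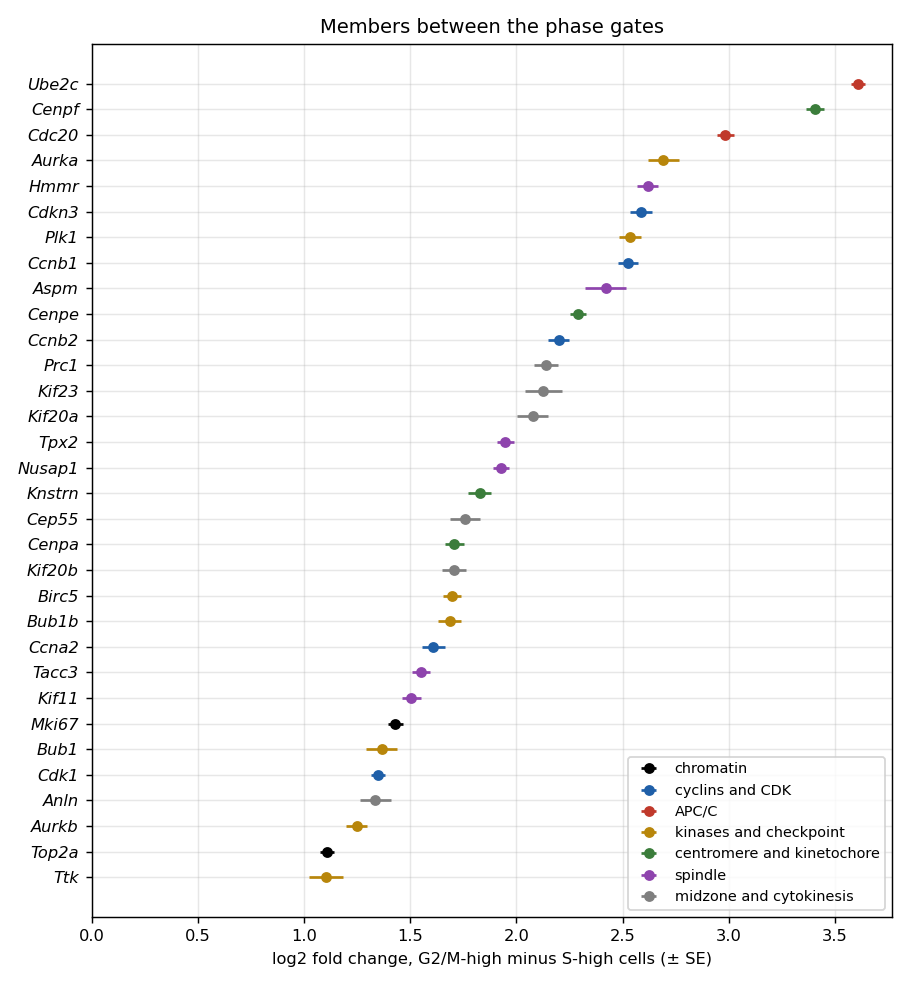
Log2 fold change of each of the 32 genes between G2/M-high and S-high cells, as points with standard errors, in order of size and coloured by role. All 32 lie above 0, from 1.10 for Ttk to 3.61 for Ube2c.

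Of 47 other mitosis genes, listed separately, 23 were not used for the gate, and of these 22 were higher in G2/M-high cells and 1 lower. The largest changes were in the motors Kif14 at 2.26 ± 0.08 and Kif18b at 1.96 ± 0.12. Cdca5, which protects cohesion, changed by 0.51 ± 0.07, and Mybl2, a transcription factor of late S and G2 genes, fell by 0.65 ± 0.07 on the log2 scale (edgeR adjusted p 7.54e-07).

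The next question was whether division differed with differentiation state. Cells were scored for 4 marker lists, precursor (Tcf7, Slamf6, Il7r and others), memory (Klf2, S1pr1, Gzma and others), effector (Ifng, Tnf, Ccl3 and others) and exhausted (Pdcd1, Havcr2, Lag3 and others). A cell in the top 20% of its library for exactly 1 list was assigned to that state. This gave 2628 precursor, 2323 memory, 2327 effector and 2122 exhausted cells, 238 to 1396 per library and state. A further 9409 cells in no list's top 20% are called marker-low. The 4250 cells in the top 20% of more than 1 list were given no state and entered no comparison between states. Their summed level of the 32 genes averaged 1775 CPM. The names stand for these lists alone, and 3.03% to 4.60% of all cells lay within 0.1 SD of a state's limit. Median UMIs averaged 14793 in effector, 12538 in precursor, 12133 in memory and 10993 in exhausted cells. The 28 markers of other cell types summed to a mean of 125.5 CPM in precursor, 95.8 CPM in memory, 70.8 CPM in effector and 110 CPM in exhausted cells. In marker-low cells they summed to a mean of 175.9 CPM, with 85.3 to 396 CPM over the libraries. Without cells that held 10 or more UMIs of these markers, the counts of members called below were 6, 32, 26 and 26 in precursor, memory, effector and exhausted cells. With states scored at 4000 thinned UMIs per cell they were 0, 32, 29 and 22.

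Of the 4 marked states, memory cells held the highest share of G2/M-high cells. These made up 15.4%, 20.6% and 14.2% of memory cells in replicates 1, 2 and 3 and 13.3% in IgG, above each of the other 3 states in every library. The share was 8.11%, 6.99%, 8.27% and 8.52% in precursor, 7.14%, 8.55%, 6.96% and 6.63% in exhausted, and 4.15%, 1.69%, 4.95% and 6.05% in effector cells. Effector cells were the lowest of the 4 states in each library. Precursor and exhausted cells overlapped. Marker-low cells, at 12.3%, 12.8%, 13.9% and 13.2%, reached nearly the memory share in replicate 3 and IgG. The S-high share was 11.3% to 17.3% over the 4 libraries in effector cells, 10.4% to 16.4% in exhausted, 10.4% to 12.1% in precursor and 15.6% to 21.0% in memory cells, so that the effector values overlapped those of each other state.

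The members gave a similar picture for memory cells. At 2000 UMIs, 42.3%, 46.4% and 32.4% of memory cells in replicates 1, 2 and 3 and 38.6% in IgG held UMIs of at least 3 members. The share was 22.4%, 20.6%, 22.1% and 28.6% in precursor, 27.9%, 23.99%, 23.3% and 28.1% in effector, and 21.0%, 23.4%, 17.2% and 21.0% in exhausted cells. Here effector cells were above exhausted cells in each library. Marker-low cells were as high as memory cells, at 36.6%, 41.9%, 36.4% and 39.98%, which overlap the memory values. The summed level of the 32 genes was 3257, 3554 and 3116 CPM in memory cells of replicates 1, 2 and 3 and 3186 CPM in IgG, and 1526 to 2347 CPM in the other 3 states.

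**Figure D3:**
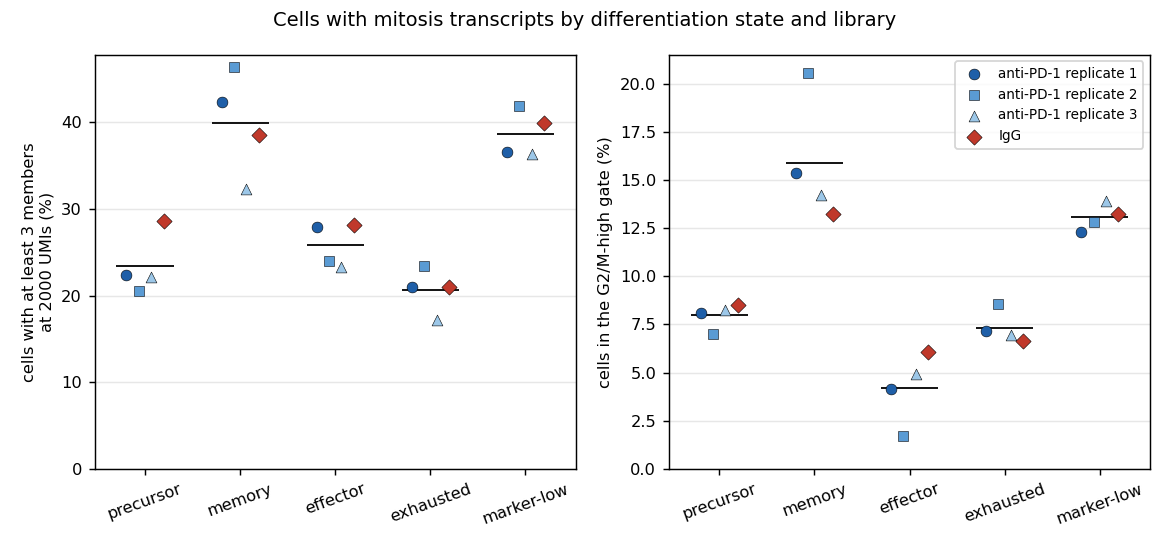
Share of cells with UMIs of at least 3 members after thinning to 2000 UMIs (left) and share in the G2/M-high gate (right), by differentiation state, 1 symbol per library and a bar at the mean of the 4 libraries. Memory cells lie above the other 3 marked states in both panels, effector cells are lowest in the right panel, and marker-low cells overlap memory cells.

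In the edgeR fit, with the library as a block, all 32 genes were higher in memory cells than in the mean of the other 3 states, where 17.5% of 10649 genes were called higher. The median log2 fold change was 0.79, against 0.00 over all genes, and adjusted p ran up to 0.000491 for Cenpa. The largest change was in Cdkn3. It was at 50.0, 56.4 and 45.5 CPM in memory cells of replicates 1, 2 and 3 and 48.2 CPM in IgG, and at 15.6 to 30.4 CPM in the other states. Its log2 fold change was 1.06 ± 0.10 (SE). Birc5 was at 272, 307, 205 and 236 CPM in memory cells and at 92.5 to 155 CPM in the others, a change of 1.03 ± 0.07, and Ccnb2 changed by 1.01 ± 0.09. In these 3 genes no library of the other 3 marked states reached the lowest memory value, although marker-low cells reached 220 CPM of Birc5 and 121 CPM of Ccnb2, inside the memory range.

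The smallest changes in memory cells were those of Cenpa, Bub1b and Bub1. Cenpa was at 360, 347, 335 and 361 CPM in replicates 1, 2 and 3 and IgG, and at 245 to 360 CPM in the other states, so that the values overlapped. Its log2 fold change was 0.23 ± 0.05, and those of Bub1b and Bub1 were 0.56 ± 0.08 and 0.60 ± 0.08. Mki67 was at 259, 267, 271 and 281 CPM against at most 207 CPM in the other 3 marked states, a change of 0.74 ± 0.05, and Top2a changed by 0.67 ± 0.04. Cdk1 rose by 0.65 ± 0.07, Ccnb1 by 0.73 ± 0.10, Aurkb by 0.68 ± 0.08 and Plk1 by 0.85 ± 0.10. Of all 32 genes, 30 had their 4 memory values above every value of the other 3 marked states, where this held for 2.61% of 10649 genes, the exceptions being Cenpa and Anln. Each gene was higher than the mean of those states in 4 of 4 libraries, where this held for 22.2% of 10649 genes.

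Marker-low cells, which did not enter the fit, were close to memory cells in most members. The 4 memory values lay above all marker-low values in 2 genes, Cdkn3 and Ube2c, where this held for 4.67% of 10649 genes, and the values of the other 30 overlapped. Mki67 was at 225, 231, 261 and 279.5 CPM in marker-low cells of replicates 1, 2 and 3 and IgG, and Cdkn3 at 29.95, 37.6, 45.2 and 44.03 CPM. The mean ratio of memory to marker-low over the libraries had a median of 1.11 over the members, with Cdkn3 highest at 1.32 and Bub1b lowest at 0.967. Memory exceeded marker-low in all 4 libraries in 8 of the 32 genes, where this held for 18.6% of 10649 genes, and in 3 libraries in 16. This difference was not tested.

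In effector cells 27 genes were lower and none higher, where 27.8% of 10649 genes were called lower, so that this fall was set against a broad change of the transcriptome. The median log2 fold change of the members was -0.37, and that of all genes -0.04. The lowest was Cenpf, at 40.1, 29.9 and 63.2 CPM in replicates 1, 2 and 3 and 76.01 CPM in IgG, the lowest of the 4 states in each library. It changed by -0.81 ± 0.12. Knstrn changed by -0.60 ± 0.10 and Ttk by -0.54 ± 0.12. Mki67, at 124, 116, 144 and 166 CPM, changed by -0.46 ± 0.05, Plk1 by -0.40 ± 0.10 and Top2a by -0.20 ± 0.05. The 5 genes that were not called were Bub1 at 0.09 ± 0.09, Cdk1 at 0.04 ± 0.07, Aurkb at -0.03 ± 0.08, Ccnb1 at -0.08 ± 0.11 and Anln at -0.23 ± 0.10, with edgeR adjusted p of 0.064 or more. In cells with a nontargeting guide alone, with fewer cells per sum, 2 members were called lower. That fit called 2030 of 7488 genes in either direction, against 5719 of 10649 with all guides. Ccnb1 stood at 0.37 and Aurkb at 0.25 in it. Cdk1 was at 78.2, 61.9, 70.7 and 72.04 CPM in effector cells, of which replicate 1 alone lay above all precursor and exhausted values.

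Exhausted cells also had lower levels, with 26 genes lower and none higher, where 17.7% of 10649 genes were called lower. The median was -0.35, and that of all genes was 0.01. Birc5 was lowest, at 92.5, 123, 93.8 and 112 CPM in replicates 1, 2 and 3 and IgG, and changed by -0.71 ± 0.08. Aurkb, its partner, was at 27.1, 27.4, 26.3 and 29.1 CPM, below every value of the other 3 marked states, the 1 member for which this held, against 0.479% of 10649 genes. It changed by -0.61 ± 0.09, and Cdc20 by -0.52 ± 0.09. Cdk1 fell by 0.39 ± 0.08, Ccnb1 by 0.40 ± 0.12, Plk1 by 0.37 ± 0.11, Top2a by 0.33 ± 0.05 and Mki67 by 0.22 ± 0.05 on the log2 scale. The highest were Cenpa at 0.06 ± 0.05, Cenpf at -0.03 ± 0.12 and Kif20b at -0.12 ± 0.07, none of them called. Cenpf in exhausted cells was at 70.9, 95.4, 79.1 and 97.1 CPM, overlapping the precursor values. The count of 26 was 11 without replicate 3, 15 with UMIs within 2 MAD (median absolute deviations) of the library's median in place of 3, and 6 in cells with a nontargeting guide. With states taken from the top 10%, 22 members were called lower and 1 higher. Ccnb1 was no longer called without replicate 1, replicate 3 or IgG, nor Plk1 without replicate 3 or IgG.

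The calls of effector and exhausted cells are set side by side here. Of the 32, 21 were called lower in both, 6 in effector cells alone (Bub1b, Cenpa, Cenpf, Kif20b, Prc1 and Ttk) and 5 in exhausted cells alone (Anln, Aurkb, Bub1, Ccnb1 and Cdk1). Of 10649 genes, 27.8% were called lower in effector and 17.7% in exhausted cells. The share of all genes called lower in both was not counted. The 2 states were not tested against each other, so that a call in 1 of them does not show a difference, and of the 6 and 5 genes Bub1b at -0.21 ± 0.09 in exhausted and Anln at -0.23 ± 0.10 in effector cells lay on the same side. All 5 genes of the cyclin and CDK group were called lower in exhausted cells and 3 in effector cells. The 4 centromere and kinetochore genes were all called lower in effector cells and 2 in exhausted cells. These are counts of calls in small groups and do not show a difference between the states. All 6 spindle genes were lower in both states. Both comparisons use the same 16 sums, and each state is part of the mean that the other is compared with. The overlap is therefore not read as a trait of the members.

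Precursor cells differed little, with 6 genes lower and none higher, where 12.0% of 10649 genes were called lower and the 6 are 18.8% of the members. These were Cdk1 at -0.30 ± 0.07, Ube2c at -0.28 ± 0.08, Ccna2 at -0.25 ± 0.08, Prc1 at -0.24 ± 0.08, Kif20b at -0.20 ± 0.07 and Top2a at -0.14 ± 0.05, each lower in 4 of 4 libraries, with edgeR adjusted p of 0.00385 to 0.0388. Ccnb1 was among the lowest at -0.26 ± 0.11 but was not called. It was called at -0.43 with UMIs within 2 MAD (edgeR adjusted p 0.00758). With no filter on low counts it was called at -0.26 (edgeR adjusted p 0.000727). Cdc20 at 0.13 ± 0.08, Knstrn at 0.12 ± 0.09 and Tpx2 at 0.06 ± 0.05 were the highest, and Mki67, Plk1 and Aurkb lay at -0.06 ± 0.05, -0.08 ± 0.10 and -0.05 ± 0.08, not called. The count of 6 depended on single libraries and on the gate. It was 1 without replicate 1, 5 without replicate 2, where Cdc20 was also called higher at 0.19 (edgeR adjusted p 0.0381), 3 without replicate 3, 3 without IgG, 11 with UMIs within 2 MAD, 1 in cells with a nontargeting guide, 1 with states taken from the top 10%, and 0 when the states were scored at 4000 UMIs.

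**Figure D4:**
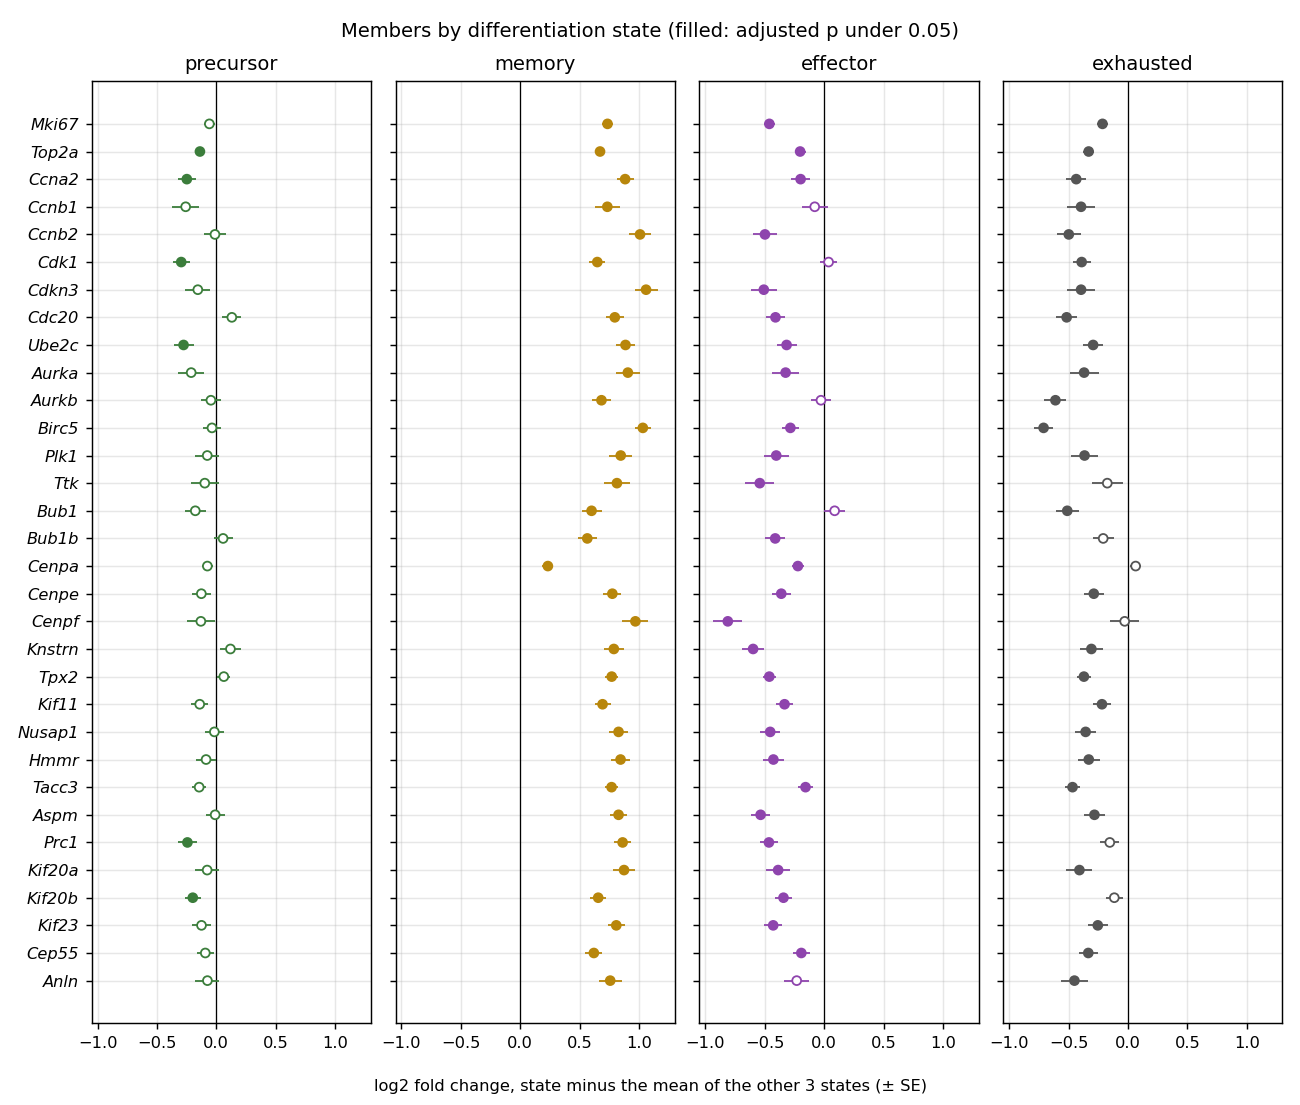
Log2 fold change (± SE) of each of the 32 genes in each state against the mean of the other 3 states, with filled points for an edgeR adjusted p under 0.05. All 32 points are filled and right of 0 in memory cells, 27 and 26 are filled and left of 0 in effector and exhausted cells, and 6 in precursor cells.

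Across the 32 genes, those with the larger G2/M-high to S-high change had the larger rise in memory cells (Pearson r = 0.47, Spearman rho = 0.59) and the deeper fall in effector cells (-0.46 and -0.40), while exhausted (0.13 and 0.09) and precursor cells (-0.06 and -0.02) showed little relation. These are descriptions over genes of the same libraries, which are not independent replicates.

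The other mitosis genes are given by the same counts, to be read against the shares of all genes above. Of the 47, 46 were higher in memory cells, and all 23 of those outside the G2/M gate, with a median of 0.63. The largest were Cdc25b, a phosphatase that activates CDK1, at 1.17 ± 0.11 and Ccnf, cyclin F, at 0.98 ± 0.09, and the lowest Pttg1, securin, at 0.14 ± 0.05 and the checkpoint gene Bub3 at 0.20 ± 0.04. In effector cells 32 of 47 were lower, 12 of 23 outside the gate, with Psrc1 at -0.99 ± 0.25 and Cdc25b at -0.96 ± 0.13 the lowest. The centriole kinase Plk4 at 0.12 ± 0.05 and the condensin gene Ncaph at 0.12 ± 0.08 were the highest there and were not called. In exhausted cells 28 of 47 were lower, 14 of 23 outside the gate, led by Cks1b at -0.67 ± 0.07 and Mybl2 at -0.56 ± 0.15, while Ckap5 and Cdca2 were at 0.00 ± 0.06 and 0.00 ± 0.11. In precursor cells 6 of 47 were lower, near the 12.0% of all genes called lower there, and 1 was higher. The lowest were Spc25 at -0.29 ± 0.09 and Plk4 at -0.27 ± 0.05, and Psrc1 was higher at 0.70 ± 0.21, with Espl1 next at 0.15 ± 0.12, not called.

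A sum over the cells of a state cannot tell more dividing cells from more transcripts per dividing cell, so the states were also compared within G2/M-high cells. The gate takes the top of a score, and states could still differ within it in their mix of G2 and M cells. This mix was not tested. These held 11 to 155 cells per library and state, and the 5 effector cells of replicate 2 were left out of the fit. Of the 32 genes, 10 differed between states by an F test of edgeR over 3 contrasts, or 31.3% of the members, where 12.4% of 7246 genes were called. They were Ccnb2, Cdk1, Ube2c, Birc5, Cenpa, Cenpe, Cenpf, Prc1, Kif20b and Kif23. The count rested on single libraries, being 8, 5, 6 and 2 without replicate 1, replicate 2, replicate 3 and IgG, and it was 1 with the gate at the top 5% of cells and 5 with UMIs within 2 MAD.

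Cenpa had the smallest p. Within G2/M-high cells it was at 980, 922 and 1129 CPM in exhausted cells of replicates 1, 2 and 3 and 977 CPM in IgG, above the 582 to 869 CPM of the other states with no overlap. The adjusted p given with the genes below is that of the F test for any difference between the 4 states, and no single pair of states was tested. Against precursor cells the log2 change of Cenpa was 0.43 in exhausted, 0.04 in memory and -0.11 in effector cells (edgeR F test, adjusted p 0.000189). Cenpf was at 577, 498, 661 and 674 CPM in exhausted cells and at 452, 298, 457 and 504 CPM in precursor cells, a change of 0.46, and its F test gave an adjusted p of 0.00187. Kif20b, a motor of the midzone, was at 204, 167, 204 and 227 CPM against 141, 108, 150 and 156 CPM, a change of 0.50, and its F test gave an adjusted p of 0.00649. Cenpa, Cenpe, Cenpf, Prc1 and Kif20b were highest in exhausted cells in 4 of 4 libraries, where this held for 3.20% of 7246 genes, leaving out the 5 effector cells of replicate 2.

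Birc5 followed another order. It was at 652, 677, 625 and 686 CPM in G2/M-high memory cells of replicates 1, 2 and 3 and IgG and at 422, 535 and 525 CPM in effector cells of replicates 1 and 3 and IgG, with memory cells highest in 3 of 4 libraries (adjusted p 0.0136). Cdk1 was lowest in precursor cells in each library, at 274, 206, 253 and 232 CPM, against 280 to 320 CPM in memory, 291 to 335 CPM in effector and 273 to 360 CPM in exhausted cells (adjusted p 0.0431). The remaining members called were Ube2c, Kif23, Prc1, Ccnb2 and Cenpe, with adjusted p of 0.0131 to 0.0498. Mki67, Top2a, Ccnb1, Aurkb and Plk1 were not called, with adjusted p of 0.0794, 0.456, 0.172, 0.754 and 0.443. Of the other mitosis genes, 46 were tested within G2/M-high cells and 6 were called, near the 12.4% of all genes. Of the 23 outside the gate 1 was called, Fbxo5, an inhibitor of the APC/C, with an adjusted p of 0.049989 in the F test and a change of 0.36 in exhausted against precursor cells.

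**Figure D5:**
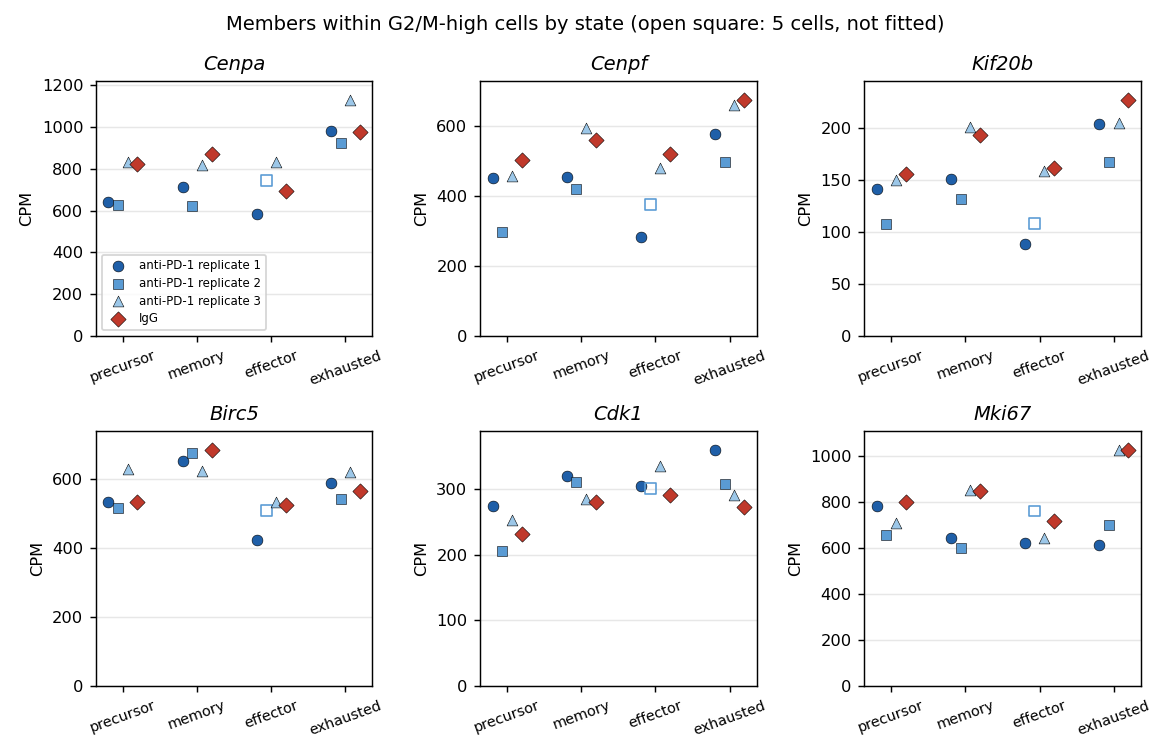
Level in CPM of 6 members within G2/M-high cells by state, 1 symbol per library, with axes from 0; the open square marks the 5 effector cells of replicate 2 that were not fitted. Cenpa, Cenpf and Kif20b are highest in exhausted cells, Birc5 is highest in memory cells and Cdk1 lowest in precursor cells in each library, with 1 exception for Birc5 in replicate 3, while Mki67 overlaps between states.

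Treatment was compared over the 4 libraries. No member was called between anti-PD-1 and IgG by edgeR, where 0% of 13810 genes were called. At an unadjusted p under 0.05 there were 0 members and 282 genes, and DESeq2 called 0 members and 5 genes. With 1 IgG library, its spread was taken from that between the anti-PD-1 replicates. In a test on simulated counts of this design with 200 changed genes, 36% of those changed 2-fold and 1% of those changed 1.5-fold were recovered. The median log2 fold change of the members was -0.13, against 0.01 over all genes. IgG lay above all 3 anti-PD-1 libraries in 20 genes, where this held for 23.9% of 13810 genes, inside their range in 12 and below them in none. Against replicate 3 alone, IgG was higher in 27 members and in 49.5% of 13810 genes.

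The lowest fitted changes were those of Anln at -0.37 ± 0.21 (SE), Cenpf at -0.35 ± 0.18 and Aurka at -0.33 ± 0.25, and the highest those of Cdk1 at 0.16 ± 0.18, Ccna2 at 0.13 ± 0.16 and Ttk at 0.01 ± 0.16, none of them called. Mki67 was at -0.21 ± 0.12, Plk1 at -0.24 ± 0.15, Aurkb at -0.06 ± 0.12, Ccnb1 at -0.02 ± 0.16 and Top2a at 0.00 ± 0.12, also not called. Anln was at 9.14, 8.72 and 12.2 CPM in replicates 1, 2 and 3 and at 13.03 CPM in IgG, so that replicate 3 lay nearer to IgG than to replicates 1 and 2. The same was seen in Cenpf and Aurka. Without replicate 3, 9 members were called lower with anti-PD-1, 28.1% of them, where 12.5% of 13327 genes were called lower. They were Anln, Aurka, Cdkn3, Cenpf, Hmmr, Kif20b, Knstrn, Plk1 and Prc1, at -0.28 to -0.53. Replicates 1 and 2 share a title prefix, and treatment and that prefix cannot be told apart in that fit. With the prefix as a term, which leaves replicate 3 and IgG to set the fold, 0 members and 283 genes were called. Of the other 47 mitosis genes 0 were called, with Mybl2 at 0.46 ± 0.31 and Ncaph at 0.15 ± 0.17 the highest and Fbxo5 at -0.37 ± 0.21 and Ckap2l at -0.32 ± 0.21 the lowest.

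The share of cells that held at least 3 members gave no difference that this design could call. At 2000 UMIs, 31.1%, 32.6% and 27.3% of cells in replicates 1, 2 and 3 and 32.1% in IgG held UMIs of at least 3 members, a difference of -1.72 percentage points that was -2.10, -2.86 and -0.22 without replicates 1, 2 and 3. The two-sided exact permutation p was 0.75, and the smallest p that 4 libraries allow is 0.25. Counted without thinning, the shares were 70.2%, 68.4% and 61.6% against 51.0%, a difference of 15.7 points (exact permutation p 0.25), and these shares stood in the order of the libraries' depths. In cells with a nontargeting guide, 2685 in all, the difference at 2000 UMIs was 1.74 points (exact permutation p 0.75).

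The state differences were compared between treatments by an interaction term. No member was called by edgeR, where 0.0269% of 11168 genes were called. At an unadjusted p under 0.05 there were 3 members, Prc1, Kif11 and Aurkb, and 352 genes, and DESeq2 called 0 members. Without replicate 3, 5 members passed, or 15.6% of them, where 1.43% of 10870 genes were called. The anti-PD-1 libraries left in that fit share a title prefix that IgG lacks, so treatment and prefix cannot be told apart there either. That count is therefore not read as an effect of treatment on the state differences. The interaction term was also not checked on simulated counts. Memory cells of the IgG library held 281 CPM of Mki67, against 166 to 207 CPM in its other 3 marked states and 279.5 CPM in its marker-low cells. Those of the anti-PD-1 libraries held 259 to 271 CPM, against 116 to 178 CPM in the other marked states and 225 to 261 CPM in marker-low cells.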

How the data were processed

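CROP-seq libraries were read with 10x 3′ chemistry, and the authors made the deposited files with Cell Ranger 3.1.0 on mm10; their later analysis used R 3.6.3 and Seurat. The deposited values are raw UMI counts per gene and guide for each cell, without normalization. Here, cells with exactly 1 of the guides were kept if log10 UMIs lay within 3 median absolute deviations (MAD) of the library's median and mitochondrial UMIs were at most 10%, which gave 2535 to 11495 cells and 142945121 to 155974184 gene UMIs of all barcodes per library. Intervals and the limit that a count of 0 allows (3 cells, 0.0261% to 0.118% of a library's cells) cover counting error only. Doublets were limited by leaving out cells with more than 1 guide and by the UMI limits, and no doublet caller was run.

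Marker lists were scored as mean Pearson residuals (theta 100, clipped at 10). Gates and members were read in the same cells, so a test between gates is not independent of how cells were chosen. UMI counts were summed per library and state or phase (at least 10 cells) and tested with edgeR 4.0.16 (quasi-likelihood, TMM, filterByExpr at its defaults, library as a block except for treatment) over all genes passing the filter, with Benjamini-Hochberg adjustment; ± is the SE of the log2 fold change unless SD is stated. Alternatives were DESeq2 1.42.0, RLE factors, no low-count filter, other gates and filters, nontargeting cells and leaving out each library. Tests were checked on simulated counts, apart from the interaction of state and treatment. In the memory fit (10649 genes, 200 changed), 83% of genes changed 1.5-fold and 98% of those changed 2-fold were recovered. Shares were compared by exact permutation (scipy 1.17.1). Motifs were searched in RefSeq promoters, and overlaps in the annotation of build GRCm38. The members, marker lists and tests were chosen with earlier results of these data known. For each comparison the text names the 3 members with the largest and the 3 with the lowest log2 fold change, plus Mki67, Top2a, Cdk1, Ccnb1, Aurkb and Plk1.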

Additional observations from a re-analysis of the deposited data

How the results depend on the processing

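All 32 members stayed higher in G2/M-high than in S-high cells under each alternative run, and in memory cells under each except nontargeting cells, where 25 were called. The precursor count of 6 became 1 with nontargeting cells, 11 with UMIs within 2 MAD, 1 with the state gate at the top 10%, 0 with the gate on 4000 thinned UMIs, and 1 to 6 when each library was left out in turn, the 6 without replicate 2 being 5 lower and 1 higher. The effector count of 27 became 2 with nontargeting cells, where 2030 of 7488 genes were called in either direction. The exhausted count of 26 became 6 with nontargeting cells and 15 within 2 MAD, and 11 to 27 when each library was left out. Nontargeting cells number 2685, so these sums hold fewer cells. The count within G2/M-high cells, 10, became 5 within 2 MAD, 1 with the G2/M gate at the top 5%, and 2 to 8 with each library left out. The treatment count of 0 ran from 0 to 9 with each library left out, and the state by treatment count from 0 to 5, and became 1 with no filter on low counts. The difference in the share of cells with at least 3 members, -1.72 points, became 15.7 without thinning and 1.74 in nontargeting cells, -5.36 at 4000 UMIs, -2.54 and -1.67 for at least 2 and 5 members, and -2.86 to -0.22 with each anti-PD-1 library left out. Where no construction of the alternative shows it, the cause was not tested.

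Of the values of single named members, 658 kept direction and call, 35 lost the call (16 of them with nontargeting cells), 9 gained it and 33 changed sign, the last all in values not called. In precursor cells Tpx2 turned to -0.081 within 2 MAD; with the gate at 4000 UMIs Mki67 was 0.066, Aurkb 0.0051 and Plk1 0.0051, and Plk1 ran from -0.14 to 0.0081 with each library left out. In effector cells Bub1 was -0.068 at 4000 UMIs, Cdk1 -0.035 within 2 MAD and -0.042 to 0.13 with each library left out, Aurkb 0.25 with nontargeting cells, 0.082 at the top 10% and -0.093 to 0.025 with each library left out, and Ccnb1 0.37 with nontargeting cells and -0.19 to 0.056 with each library left out. In exhausted cells Cenpf was 0.0056 with DESeq2, 0.10 within 2 MAD and -0.17 to 0.083 with each library left out. Between treatments the term from sample titles gave Cdk1 -0.059, Ccna2 -0.0049 and Ttk -0.12. Ttk was also -0.0025 with no filter, -0.018 within 2 MAD and -0.048 to 0.065 with each library left out. Top2a was 0.0002 with DESeq2, 0.0003 with RLE factors, 0.043 with nontargeting cells, 0.0002 without cells with other-cell markers and -0.027 to 0.036 with each library left out. Ccnb1 was 0.29 with nontargeting cells and -0.11 to 0.031 with each library left out, and Aurkb 0.0058 with nontargeting cells. Fits of treatment and of state by treatment without IgG could not be made, nor the fit within G2/M-high cells with nontargeting cells. No paired analysis was possible because the 2 treatments share fewer than 2 replicate numbers.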
